A study of Homo sapiens with 16 samples.

Results

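The genes described here are 10 core genes of the epithelial-mesenchymal transition: the transcription factors SNAI1, SNAI2, TWIST1, ZEB1 and ZEB2, the cadherins CDH1 and CDH2, and the mesenchymal proteins VIM, FN1 and ACTA2. They were taken by symbol from the 57500 genes of the deposited count and TPM tables, and all 10 were among the 17306 genes that passed the filter on low counts. RNA was measured in 16 libraries of HEK293T, an established human embryonic kidney cell line, with 4 libraries in each of 4 groups. The first group carried a lentivector for H2A(E92K), a histone H2A with an acidic-patch residue replaced by lysine, and its titles name DMSO. The second carried the H2A lentivector and had 1 µM JQ1, an inhibitor of BET bromodomain proteins, for 3 h. The third carried the H2A lentivector and had 2.5 µM pinometostat, an inhibitor of the histone methyltransferase DOT1L, for 24 h. The group they were set against carried the H2A lentivector, with DMSO in its titles. Every group therefore carried an added H2A vector, and the series text calls the cells transfected. Neither the promoter of the vector nor whether a line was 1 clone is stated in the labels. The labels give no DMSO time, so the same H2A DMSO libraries served as the control of a 3 h and of a 24 h exposure.

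In the epithelial-mesenchymal transition, cells that adhere through E-cadherin lose that contact and take up a motile, fibre-rich state. The SNAI and ZEB zinc-finger factors bind E-box motifs and repress CDH1, the gene of E-cadherin, while TWIST1 is a basic helix-loop-helix factor of mesoderm and neural crest. N-cadherin (CDH2), the intermediate filament vimentin (VIM), fibronectin (FN1) and smooth muscle actin (ACTA2) are textbook products of the mesenchymal state, and HEK293T cells are known to express mesenchymal as well as epithelial genes.

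Depth ran from 17779692 to 27599686 counts per library. The mitochondrial share was 16.5% in JQ1 replicate 1, where its 3 companions had 3.04% to 3.69%. It was 7.45% in E92K replicate 4, where its 3 companions had 3.77% to 4.95%. Pinometostat and H2A DMSO libraries lay between 3.66% and 5.04%. Both libraries also stood apart by gene length: among the 3174 tested genes with under 2000 exonic bases the median log2 CPM lay 0.46 above the mean of the other 3 JQ1 libraries in JQ1 replicate 1, and 0.26 above the other 3 in E92K replicate 4. Fold changes of several of the 10 genes, and several list counts, are also given without both. Fold changes of single list genes and of genes overlapping these on the opposite strand, and the marker sums, are given only with both. Of 9 embryonic kidney markers 8 passed the filter and PAX8 averaged under 10 counts, all 8 fibroblast markers passed, and 1 of 6 endothelial, 1 of 7 blood and 2 of 7 mature kidney markers passed, with HBB and UMOD at 0 in every library. Nothing in the labels says that the libraries of a group came from separate cultures, so the p-values measure the spread between these libraries, which may be technical.

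By the files' coordinates, whose starts and ends match GENCODE release 29 (GRCh38) for 96.3% of shared identifiers and for 8 of these 10 genes (not SNAI2 and ZEB2), the genes were placed as follows. SNAI1 (ENSG00000124216) is at chr20:49982999-49988886, SNAI2 (ENSG00000019549) at chr8:48917690-48921740, TWIST1 (ENSG00000122691) at chr7:19020991-19117672, ZEB1 (ENSG00000148516) at chr10:31318495-31529814 and ZEB2 (ENSG00000169554) at chr2:144384081-144524583. CDH1 (ENSG00000039068) is at chr16:68737225-68835548, CDH2 (ENSG00000170558) at chr18:27950966-28177446, VIM (ENSG00000026025) at chr10:17228259-17237593, FN1 (ENSG00000115414) at chr2:215360440-215436172 and ACTA2 (ENSG00000107796) at chr10:88935074-88991339. Several share exonic bases with a gene on the opposite strand, and no source used here says whether counting used strand, so reads there cannot be told apart. The partners with more than a few counts were ZEB1-AS1, over 4.23% of the exonic bases of ZEB1, VIM-AS1, over 12.4% of those of VIM, and the death receptor gene FAS, over 12.8% of those of ACTA2.

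By TPM the 10 genes differed widely in abundance, from above 21.3% to above 96.4% of the tested genes. TPM divides counts by exonic length before scaling to a fixed library sum. A level compared between genes therefore depends on the length used. In the H2A DMSO libraries VIM led with 224 ± 20.5 TPM (SD, n = 4), above 96.4% of the tested genes. CDH2 at 50.3 ± 5.83 TPM, SNAI2 at 47.6 ± 3.69 TPM and TWIST1 at 42.5 ± 3.74 TPM followed, and the ranges of these neighbours overlapped. FN1, the secreted matrix glycoprotein, had 20.8 ± 4.02 TPM, ZEB1 11.2 ± 0.737 TPM, ACTA2 8.92 ± 0.475 TPM and CDH1 4.76 ± 0.421 TPM, each with a range apart from its neighbours in this order. SNAI1 at 2.41 ± 0.245 TPM and ZEB2 at 2.04 ± 0.348 TPM were lowest and overlapped, with ZEB2 above 21.3% of the tested genes. The length used for ZEB2 was 23707 exonic bases, and for SNAI1 1686. In CPM, which are not divided by length, ZEB2 averaged 14.8, above CDH1 at 9.06 and SNAI1 at 1.26. The last place of ZEB2 thus held for TPM and not for CPM. Within each gene pair of one family the levels were thus unequal: SNAI2 stood far above SNAI1, and ZEB1 above ZEB2. N-cadherin RNA exceeded E-cadherin RNA in every library, with a CDH2 to CDH1 ratio of TPM that averaged 12.5 ± 3.51 in E92K, 12.5 ± 0.820 with JQ1, 13.3 ± 0.581 with pinometostat and 10.7 ± 1.89 in H2A DMSO libraries (SD, n = 4 each), with overlapping ranges between H2A DMSO and each other group.

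**Figure D1:**
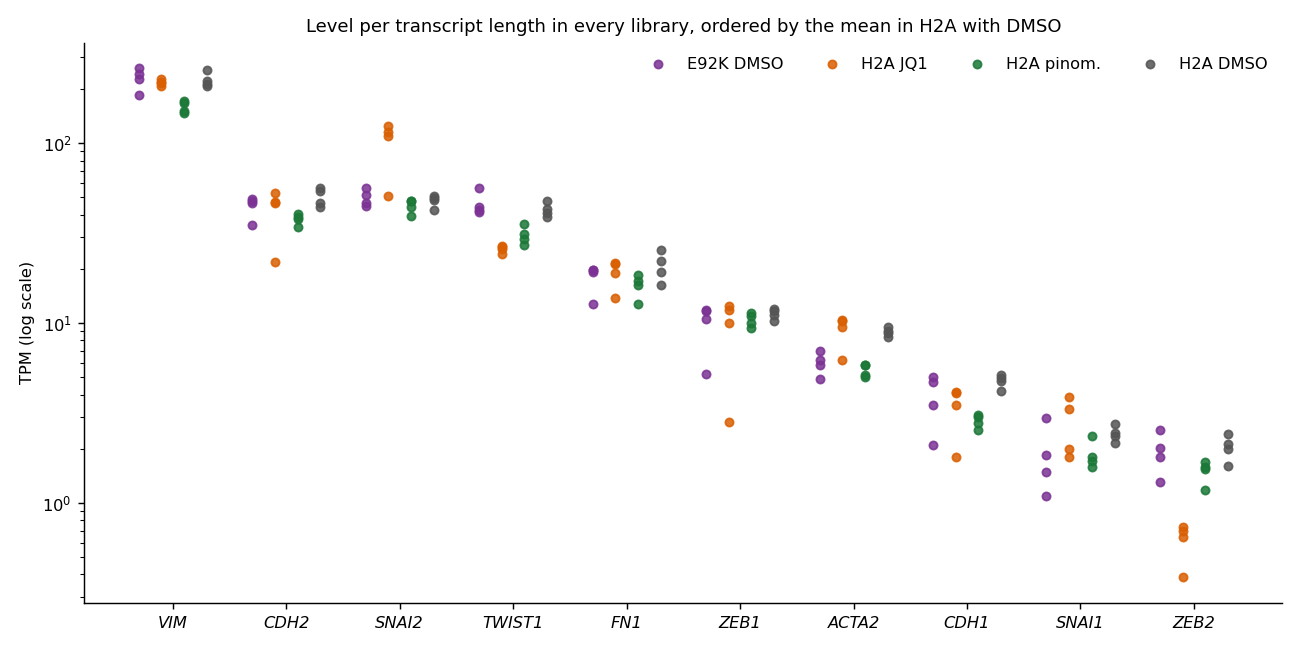
TPM of each of the 10 genes (log axis) in all 16 libraries, 1 point per library, with genes ordered by their mean in H2A DMSO libraries. VIM is highest at 224 TPM in H2A DMSO libraries and ZEB2 lowest at 2.04 TPM, and the 4 groups are displaced most for SNAI2 and ZEB2 with JQ1.

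The E-box bound by the SNAI and ZEB factors, CAGGTG or its reverse complement CACCTG, was searched on both strands of the RefSeq promoter windows (GRCh38.p14, 250 bases before to 50 bases after a gene start). It was in 7231 of all 35116 windows (20.6%). Windows were present for 6 of these genes, ZEB1, ZEB2, FN1, VIM, ACTA2 and CDH2, and the motif was in 2 of their 14 windows, both of ZEB1. CDH1, SNAI1, SNAI2 and TWIST1 had no window and were not searched. The 250 bases before 2 gene starts are shown: that of ZEB1 because its window holds the motif, in capitals, and that of ACTA2 because its RNA changed, with no match in the window. A match is a description of letters and not a measured site.
ZEB1 upstream, chr10:31318167-31318416, plus strand: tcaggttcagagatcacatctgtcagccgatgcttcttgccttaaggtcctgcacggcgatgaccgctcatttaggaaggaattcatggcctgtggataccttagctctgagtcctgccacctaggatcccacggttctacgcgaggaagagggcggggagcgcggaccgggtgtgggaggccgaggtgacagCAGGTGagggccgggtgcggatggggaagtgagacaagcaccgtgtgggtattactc
ACTA2 upstream, chr10:88952774-88953023, minus strand: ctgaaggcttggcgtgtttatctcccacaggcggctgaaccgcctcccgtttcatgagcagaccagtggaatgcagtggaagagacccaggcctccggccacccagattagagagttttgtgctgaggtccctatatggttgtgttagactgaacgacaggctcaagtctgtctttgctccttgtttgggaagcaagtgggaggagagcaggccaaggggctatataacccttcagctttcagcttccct

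**Figure D2:**
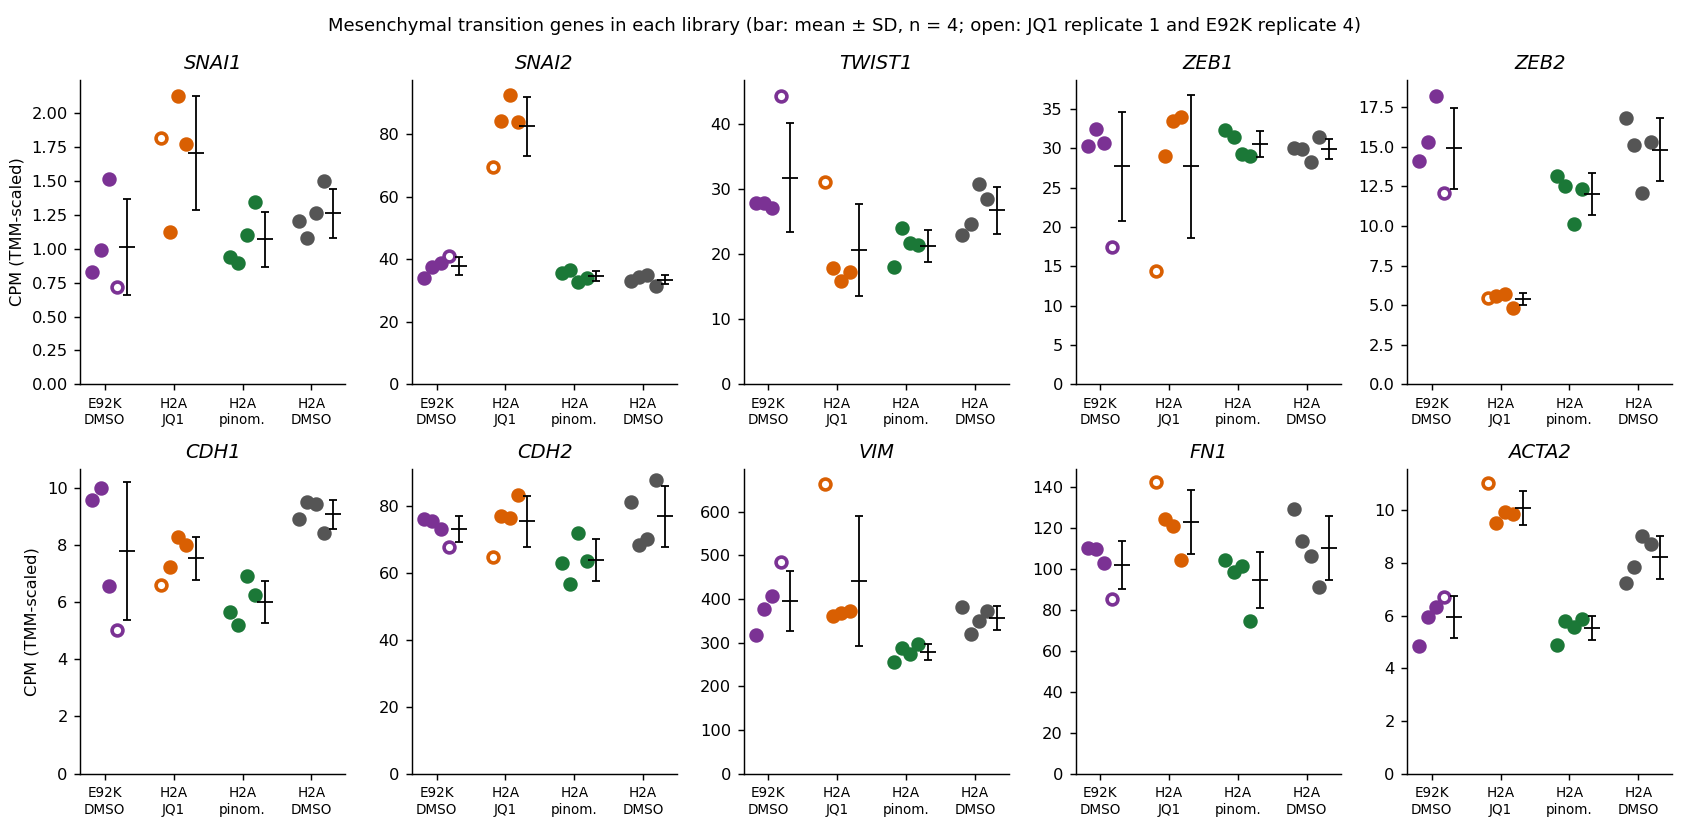
CPM (counts scaled to library size, with TMM factors) of each gene in each library, with E92K, JQ1 and pinometostat left of H2A DMSO; the bar is the mean ± SD of 4 libraries, and open circles are JQ1 replicate 1 and E92K replicate 4. SNAI2 lies between 69.3 and 92.4 CPM with JQ1 and at or below 41.0 CPM elsewhere, and ZEB2 between 4.85 and 5.69 CPM with JQ1 and at or above 10.1 CPM elsewhere.

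JQ1 for 3 h moved a SNAI and a ZEB gene in opposite directions: SNAI2 rose 2.46-fold and ZEB2 fell to 0.363 of its H2A DMSO level. These were the 2 of 10 genes called with JQ1, where 17.6% of all tested genes were called, 7.16% higher and 10.4% lower (edgeR's quasi-likelihood test, Benjamini-Hochberg adjusted p below 0.05 over 17306 genes). The other 8 genes did not pass the test. The median log2 fold change of the 10 was 0.07, beside 0.04 over all tested genes.

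SNAI2, which encodes the repressor SLUG of neural crest and mesoderm, had 69.3, 84.0, 92.4 and 83.9 CPM with JQ1, against 33.0, 34.4, 35.0 and 31.5 CPM in H2A DMSO libraries. All 4 JQ1 libraries lay above all 4 H2A DMSO libraries. The log2 fold change was 1.3 ± 0.10 (SE), with an adjusted p of 1.72e-07 by edgeR. The lowest JQ1 library was replicate 1; on the TPM scale it had 51.0 TPM, against 109.6, 124 and 116 TPM in the other JQ1 libraries and 42.3 to 50.5 TPM in H2A DMSO libraries. Without both libraries of high mitochondrial share the log2 fold change of SNAI2 was 1.35.

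ZEB2, the second ZEB repressor, had 5.44, 5.57, 5.69 and 4.85 CPM with JQ1, against 16.8, 15.1, 12.1 and 15.3 CPM in H2A DMSO libraries. The groups were far apart, and JQ1 replicate 1 lay among the other JQ1 libraries. The log2 fold change was -1.46 ± 0.14 (SE), with an adjusted p of 2.20e-06 by edgeR, and -1.49 without both libraries. ZEB1, its paralog, had 14.4 CPM in JQ1 replicate 1 and 29, 33.4 and 34 CPM in the other JQ1 libraries, against 28.2 to 31.4 CPM in H2A DMSO libraries. Its log2 fold change was -0.11 ± 0.21 (adjusted p = 0.780), and 0.08 without both libraries, so the sign rested on replicate 1. The antisense partner ZEB1-AS1 fell, with 7.35 CPM on average with JQ1 and 12.1 CPM in H2A DMSO libraries (log2 fold change -0.72 ± 0.16, adjusted p = 0.00339).

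SNAI1, the factor best known for repressing CDH1, was near the floor of precision, with 16 to 41 counts in each library. It had 1.81, 1.12, 2.12 and 1.77 CPM with JQ1, against 1.2, 1.08, 1.26 and 1.5 CPM in H2A DMSO libraries, and the groups overlapped (log2 fold change 0.43 ± 0.26, adjusted p = 0.276). TWIST1 had 31.1, 18, 15.9 and 17.3 CPM with JQ1, against 23.0, 24.7, 30.8 and 28.5 CPM in H2A DMSO libraries. Replicate 1 lay above all H2A DMSO libraries, and the other 3 below them. The log2 fold change of TWIST1 was -0.38 ± 0.20 (adjusted p = 0.199), and -0.66 without both libraries, where it passed the test (adjusted p = 0.000136) and made 3 of 10 genes called, beside 24.1% of all tested genes. It also passed the test on TPM (adjusted p = 0.00136), where TWIST1 had 25.7, 26.3, 24.1 and 26.9 TPM with JQ1 and 38.8, 40.7, 47.5 and 43.0 TPM in H2A DMSO libraries.

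CDH1, the E-cadherin gene, had 6.60, 7.23, 8.28 and 7.97 CPM with JQ1, against 8.90, 9.5, 9.43 and 8.41 CPM in H2A DMSO libraries. The groups did not overlap, yet the difference missed the threshold (log2 fold change -0.27 ± 0.18, adjusted p = 0.334). CDH2 had 64.8 to 83.2 CPM with JQ1, against 68.4 to 87.6 CPM in H2A DMSO libraries, a log2 fold change of -0.03 ± 0.11 (adjusted p = 0.894). Among the 10 genes 4 had groups that did not overlap (SNAI2, ZEB2, CDH1 and ACTA2), beside 20.5% of all tested genes.

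VIM had 663, 361, 367 and 373 CPM with JQ1, against 382, 320, 351 and 373 CPM in H2A DMSO libraries. The excess lay in replicate 1, and the log2 fold change of 0.31 ± 0.17 (adjusted p = 0.238) was 0.02 without both libraries. The antisense partner VIM-AS1 fell, with 1.88 CPM on average with JQ1 and 3.36 CPM in H2A DMSO libraries (log2 fold change -0.83 ± 0.24, adjusted p = 0.0227 by edgeR). FN1 had 143, 125, 121 and 105 CPM with JQ1, against 129.5, 114, 107 and 91.4 CPM in H2A DMSO libraries (log2 fold change 0.16 ± 0.14, adjusted p = 0.464, and 0.062 without both libraries). ACTA2 had 11, 9.52, 9.94 and 9.84 CPM with JQ1, against 7.25, 7.85, 9.03 and 8.71 CPM in H2A DMSO libraries. Every JQ1 library was above every H2A DMSO library, with a log2 fold change of 0.29 ± 0.13 that missed the threshold (adjusted p = 0.117). Its opposite-strand neighbour FAS fell with JQ1 (log2 fold change -1.20 ± 0.21, adjusted p = 0.000613).

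**Figure D3:**
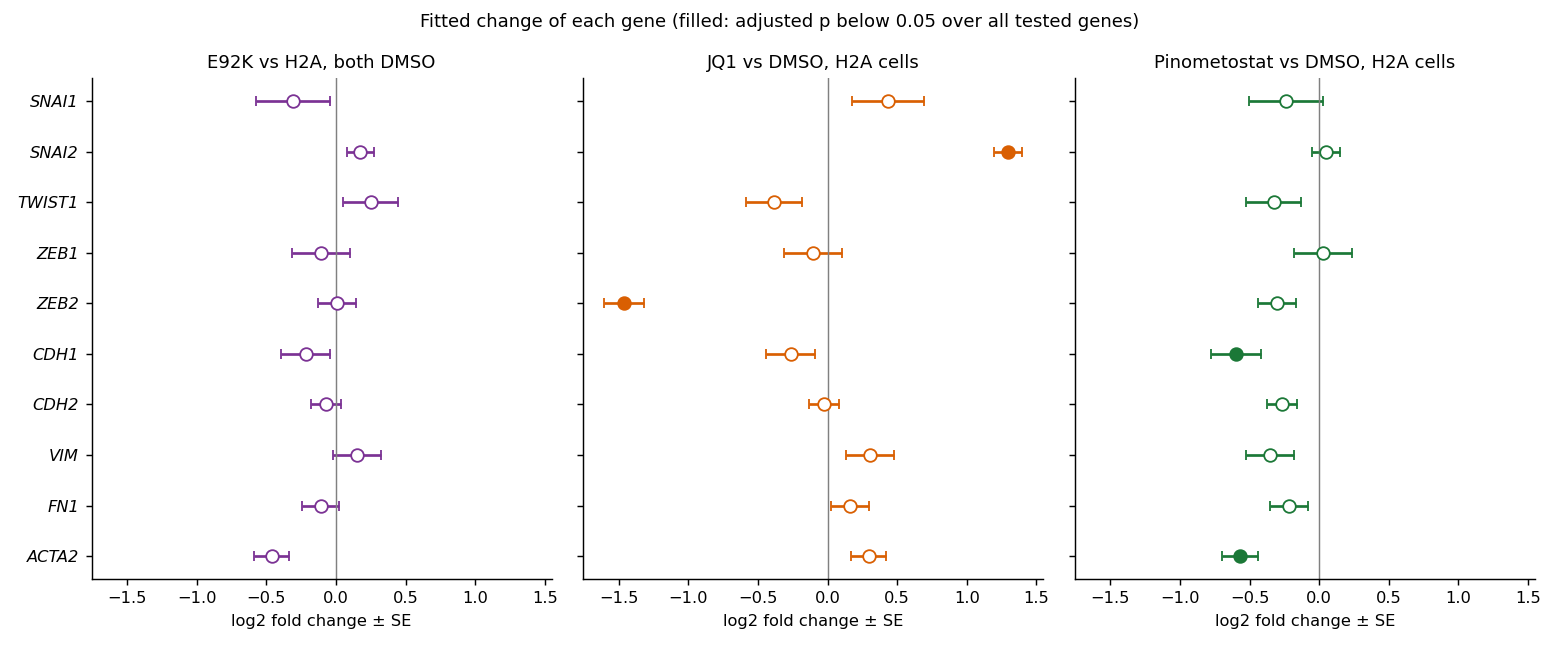
Log2 fold change ± SE of each gene over H2A DMSO libraries for E92K (left), JQ1 (middle) and pinometostat (right), with filled points for an adjusted p below 0.05 over all tested genes. SNAI2 at 1.3 and ZEB2 at -1.46 are filled with JQ1, CDH1 at -0.60 and ACTA2 at -0.57 with pinometostat, and none with E92K.

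Genes around this core were drawn from lists of the pathway. No list was tested as a set, and over all tested genes 7.16% were called higher and 10.4% lower with JQ1. Of 16 other transcription factors and ID inhibitors of the transition, all tested, 5 rose and 4 fell with JQ1. The risers were the 4 ID genes, whose products bind and block basic helix-loop-helix partners, and SOX4, a factor of progenitor cells. SOX4 was thus the only riser that was not an ID inhibitor, while none of those that fell was an ID gene. ID4 had 292, 318, 312 and 330.3 CPM with JQ1, against 108, 117, 118 and 124 CPM in H2A DMSO libraries (log2 fold change 1.42 ± 0.09, adjusted p = 2.85e-08). ID2 had 603, 488, 465 and 492 CPM, against 195, 198, 214 and 225 CPM (1.3 ± 0.11). Each was higher in 4 of 4 JQ1 libraries. ID1 rose by 1.1 ± 0.13, SOX4 by 1.3 ± 0.22 and ID3 by 0.47 ± 0.12 on the log2 scale. The 4 that fell were homeobox, forkhead and TWIST-family genes: GSC at -1.98 ± 0.19, FOXC2 at -1.16 ± 0.32, TWIST2 at -0.70 ± 0.16 and PRRX1 at -0.67 ± 0.17. GSC and FOXC2 were low, at 0.989 and 0.396 CPM on average with JQ1 and 3.89 and 0.875 CPM in H2A DMSO libraries.

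The TGF-beta list, the best known inducing pathway, had 9 of its 21 tested genes lower and 1 higher with JQ1. Of all tested genes 10.4% were lower and 7.16% higher. The list had a median log2 fold change of -0.35, beside 0.04 over all tested genes. TGFBR2, the type II receptor, had 1.67, 4.69, 4.76 and 4.29 CPM with JQ1, against 11.5, 11.5, 12.0 and 10.6 CPM in H2A DMSO libraries (log2 fold change -1.54 ± 0.24, adjusted p = 0.000233). INHBB, an activin subunit, fell by 2.30 ± 0.25 on the log2 scale, the activin receptors ACVR1B and ACVR2B by 0.68 ± 0.15 and 0.59 ± 0.15, and the signal transducer SMAD3 by 0.53 ± 0.12. The other 4 that fell were TGFB3, TGFBR3, SKIL and TGIF1, of which SKIL and TGIF1 encode corepressors of SMADs. SKI, another SMAD corepressor, was the riser (0.88 ± 0.15, adjusted p = 0.000470). Without both libraries 11 of the 21 genes were lower and 1 higher, beside 2416 lower and 1780 higher of all 17446 tested genes.

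Of 11 epithelial regulators 7 were tested, and 2 rose and 2 fell with JQ1: KLF5 at 0.64 ± 0.10 and GRHL1 at 0.63 ± 0.18, both epithelial transcription factors, against CDX2 at -1.35 ± 0.10 and OVOL2, which represses ZEB genes, at -1.51 ± 0.29. Among 19 tested corepressors and stability regulators of the SNAI and ZEB proteins, FBXW7 (0.82 ± 0.19), a ubiquitin ligase subunit, and GSK3B (0.52 ± 0.15), a kinase that marks SNAI1 for degradation, rose, and the kinase gene LATS2 (-0.70 ± 0.15) and the phosphatase gene CTDSP1 (-0.48 ± 0.10) fell, with 4 higher and 3 lower without both libraries. None of the 8 tested cadherin and catenin genes was called with JQ1 by edgeR, and 2 were higher without both libraries. Of 23 tested junction and keratin genes 3 fell, the tight junction genes MARVELD2 (-1.28 ± 0.21), MARVELD3 (-0.95 ± 0.19) and OCLN (-0.90 ± 0.21), and 3 rose, CLDN4 (0.98 ± 0.33), LLGL2 (0.53 ± 0.15) and PARD3 (0.32 ± 0.09). Without both libraries 6 were lower and 3 higher. Of 24 tested matrix, integrin and protease genes none rose and 3 fell, the fibronectin receptor subunit ITGA5 (-1.11 ± 0.12) and the syndecans SDC1 (-1.10 ± 0.18) and SDC4 (-0.74 ± 0.11). Over all tested genes 7.16% were called higher and 10.4% lower with JQ1. The counts of lower genes in the corepressor, junction and matrix lists lay near the latter share. Of 20 tested smooth muscle and actin genes, MKL1, a coactivator of SRF, rose (0.56 ± 0.11), as did the cytoplasmic actin ACTG1 (0.31 ± 0.09), and without both libraries 3 were higher. All 38 genes called in these 8 lists kept their sign under the other scalings tried. On TPM 12 were not called, and all of these but TGFBR3 were risers. The risers lost on TPM were ID3, GRHL1, KLF5, GSK3B, FBXW7, SKI, CLDN4, PARD3, LLGL2, ACTG1 and MKL1. By library size alone 8 were not called, all of them risers. Over all genes 8.77% of the JQ1 calls were higher on TPM and 14.3% by library size, against 40.7% with TMM scaling.

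The embryonic kidney markers moved as well with JQ1: 7 of the 8 tested fell and CITED1 rose, where 10.4% of all tested genes were lower and 7.16% higher. The sum over the 9 genes was 284 to 446 CPM with JQ1 and 264 to 324 CPM in H2A DMSO libraries. None of the 8 fibroblast markers was called, and their sum was 299.6 to 518 CPM with JQ1 and 269 to 325 CPM in H2A DMSO libraries. The summed endothelial markers stayed between 0.798 and 1.42 CPM with JQ1 and between 0.863 and 1.43 CPM in H2A DMSO libraries. The part of these changes in the values of the 10 genes was not tested, and in bulk RNA fewer cells of a type and less RNA per cell cannot be told apart.

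**Figure D4:**
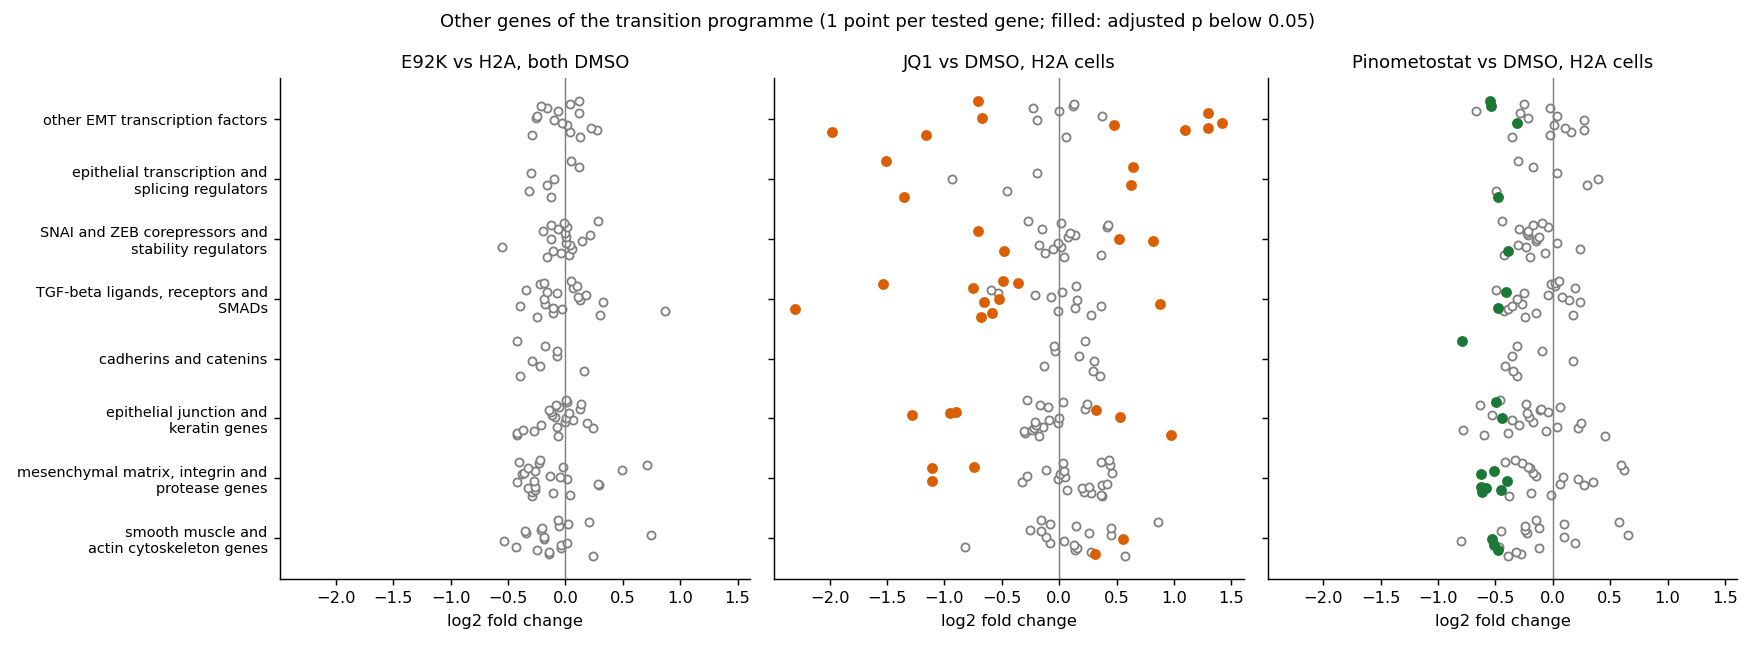
Log2 fold change over H2A DMSO libraries of each tested gene of 8 pathway lists for E92K (left), JQ1 (middle) and pinometostat (right), 1 point per gene, filled for an adjusted p below 0.05. With JQ1 the filled points lie on both sides of 0, at 9 lower and 1 higher in the TGF-beta list; with pinometostat every filled point is below 0, and with E92K there is none.

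Pinometostat for 24 h left SNAI2 near its H2A DMSO level, and the RNA of E-cadherin and of smooth muscle actin was called lower. CDH1 and ACTA2, 2 of 10 genes, fell, where 8.2% of all tested genes were called in either direction and 4.58% were lower. The CDH1 call was lost in 13 of 21 alternative fits and the ACTA2 call in 2 of 21. The fitted log2 fold change was negative for 8 of 10 genes, with a median of -0.28 beside 0.03 over all tested genes.

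ACTA2 had 4.88, 5.81, 5.55 and 5.85 CPM with pinometostat, against 7.25, 7.85, 9.03 and 8.71 CPM in H2A DMSO libraries. The groups did not overlap. The fold was 0.673 and the log2 fold change -0.57 ± 0.13 (SE), with an adjusted p of 0.0147 by edgeR, and 0.0533 without pinometostat replicate 1. FAS, which shares exonic bases with ACTA2, moved the other way (log2 fold change 0.69 ± 0.19, adjusted p = 0.0356), with 8.18 CPM on average with pinometostat and 5.05 CPM in H2A DMSO libraries.

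CDH1 had 5.64, 5.21, 6.90 and 6.26 CPM with pinometostat, against 8.90, 9.5, 9.43 and 8.41 CPM in H2A DMSO libraries. All pinometostat libraries were lower. The fold was 0.662 and the log2 fold change -0.60 ± 0.18 (SE), with an adjusted p of 0.0480 that lay just inside the threshold. The call was lost when any 1 of the 8 libraries was left out (adjusted p 0.0534 to 0.125), while the log2 fold change stayed between -0.67 and -0.53. It was also lost on TPM (adjusted p = 0.143), where VIM passed instead (adjusted p = 0.0361).

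VIM had 256, 288, 274 and 297 CPM with pinometostat, against 382, 320.1, 351 and 373 CPM in H2A DMSO libraries. It was the third gene whose groups did not overlap, beside 26.3% of all tested genes, and its log2 fold change of -0.35 ± 0.17 missed the threshold (adjusted p = 0.206). CDH2 had 63.1, 56.8, 72.0 and 63.5 CPM with pinometostat, against 81.2, 68.4, 70.1 and 87.6 CPM in H2A DMSO libraries (-0.27 ± 0.11, adjusted p = 0.129). TWIST1 had 18.1, 24.1, 21.7 and 21.4 CPM, against 23.0, 24.7, 30.8 and 28.5 CPM (-0.33 ± 0.20, adjusted p = 0.313). The spread shared by all 16 libraries entered these tests. Without both libraries of high mitochondrial share, neither of them in this comparison, the log2 fold changes were nearly the same and CDH2, TWIST1 and VIM passed as well (adjusted p 0.0252, 0.0176 and 0.00408), which made 5 of 10 genes lower, beside 27.4% of all tested genes called.

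ZEB2 had 13.2, 12.6, 10.1 and 12.3 CPM with pinometostat, against 16.8, 15.1, 12.1 and 15.3 CPM in H2A DMSO libraries (-0.30 ± 0.14, adjusted p = 0.175). FN1 had 74.4 to 104.6 CPM with pinometostat, against 91.4 to 129.5 CPM (-0.22 ± 0.14, adjusted p = 0.327), and SNAI1 0.897 to 1.34 CPM, against 1.08 to 1.5 CPM (-0.24 ± 0.27, adjusted p = 0.618). SNAI2, at 32.6 to 36.6 CPM, and ZEB1, at 29 to 32.4 CPM, overlapped with the 31.5 to 35.0 and 28.2 to 31.4 CPM of H2A DMSO libraries, with log2 fold changes of 0.05 ± 0.10 and 0.03 ± 0.21.

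In the lists around the core every called gene was lower with pinometostat. Over all tested genes 4.58% were called lower and 3.62% higher. The matrix, integrin and protease list had 7 of 24 tested genes lower: the collagen genes COL6A1 (-0.58 ± 0.10), COL5A1 (-0.62 ± 0.11), COL6A2 (-0.63 ± 0.14) and COL5A2 (-0.45 ± 0.13), the collagen crosslinking enzyme LOXL2 (-0.63 ± 0.14), the gelatinase MMP2 (-0.51 ± 0.12) and ITGA5 (-0.40 ± 0.11). COL6A1 had 116, 123, 124 and 122 CPM with pinometostat, against 211, 187, 177 and 153 CPM in H2A DMSO libraries (adjusted p = 0.00555), with no overlap. Of 8 tested cadherin and catenin genes JUP, the plakoglobin of junctions, fell (-0.79 ± 0.13, adjusted p = 0.00542), with 40.1, 38.6, 35.7 and 43.9 CPM with pinometostat, against 81.7, 72.5, 60.4 and 59.1 CPM. Of 20 smooth muscle and actin genes MKL1 (-0.53 ± 0.12), the actin-binding CNN2 (-0.51 ± 0.12) and the crosslinker ACTN1 (-0.48 ± 0.12) fell.

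Among the 16 other transcription factors and ID inhibitors TCF3 (-0.54 ± 0.12), TWIST2 (-0.55 ± 0.16) and ID4 (-0.32 ± 0.09) fell with pinometostat. Of the 21 TGF-beta genes LTBP1 (-0.47 ± 0.09), which stores the ligand in matrix, and TGFB1 (-0.41 ± 0.11), the ligand itself, fell. The junction and keratin list had 2 of 23 lower, among them the keratin gene KRT8 (-0.45 ± 0.13). The epithelial regulators had CDX2 (-0.48 ± 0.10) lower of 7, and the corepressor list CTDSP1 (-0.39 ± 0.10) of 19. These counts stand beside 4.58% of all tested genes called lower. Without both libraries calls rose over all genes, with 2530 of 17446 tested genes lower, against 793 of 17306 with all 16 libraries. The counts of lower genes without both were 10 in the matrix list, 7 in the actin list, 7 in the corepressor list and 6 in the TGF-beta list. The junction and keratin list had 5, and the other transcription factors and ID inhibitors had 5. The cadherins and catenins had 3 and the epithelial regulators 1. In the same fit 1 gene each was higher in the matrix, actin, corepressor and transcription factor lists, beside 2252 of all 17446 tested genes. All 20 genes called in the lists kept their sign under the other scalings tried, and 18 of them were not called on TPM. None of the embryonic kidney or fibroblast markers was called with pinometostat. The embryonic kidney sum was 234 to 255 CPM with pinometostat and 264 to 324 CPM in H2A DMSO libraries, with no overlap, and the fibroblast sum was 178 to 306 CPM with pinometostat and 269 to 325 CPM in H2A DMSO libraries. Without both libraries 4 of the 8 tested embryonic kidney markers were lower, and 1 of the 8 fibroblast markers was lower and 1 higher. The part of these markers in the values of the 10 genes was not tested.

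H2A(E92K) changed none of the 10 genes at the threshold, in a comparison where 0.0% of all 17306 tested genes were called by edgeR and 7.49% had an unadjusted p below 0.05. DESeq2 called 4 genes in all and limma-voom 0, none of them of the 10. With library quality weights, added after seeing the data, limma-voom called 1098 genes (6.34%), ACTA2 among them. ACTA2 came closest, with 4.83, 5.96, 6.31 and 6.71 CPM in E92K libraries, against 7.25, 7.85, 9.03 and 8.71 CPM in H2A DMSO libraries. All E92K libraries were below all H2A DMSO libraries. The groups overlapped for the other 9 genes, and did not overlap, in either direction, for 5.17% of all tested genes. The log2 fold change was -0.46 ± 0.13, with an unadjusted p of 0.00184 and an adjusted p of 0.656 by edgeR.

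For the other 9 genes log2 fold changes ran from -0.31 for SNAI1 to 0.25 for TWIST1. Without both libraries these were -0.17 for SNAI1 and 0.051 for TWIST1, and without E92K replicate 3 SNAI1 was at -0.58. TWIST1 had 27.9, 27.9, 27.1 and 44.4 CPM in E92K libraries, against 23.0 to 30.8 CPM, and only replicate 4 was outside that range. ZEB1 had 30.2, 32.5, 30.7 and 17.4 CPM, with replicate 4 again apart from the 28.2 to 31.4 CPM of H2A DMSO libraries. CDH1 had 9.58, 9.98, 6.56 and 5.01 CPM, against 8.41 to 9.5 CPM, so that E92K replicates fell on both sides of the H2A DMSO range. Its log2 fold change was -0.22, and -0.055 without both libraries. SNAI2 had 34, 37.5, 38.7 and 41.0 CPM, against 31.5 to 35.0 CPM (0.18 ± 0.10, adjusted p = 0.660). Without both libraries 0.0172% of all tested genes were called, none of them of the 10. None of the genes of the 8 pathway lists or of the marker lists was called with E92K by edgeR, and the embryonic kidney sum was 270.1 to 330.7 CPM in E92K and 264 to 324 CPM in H2A DMSO libraries.

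**Figure D5:**
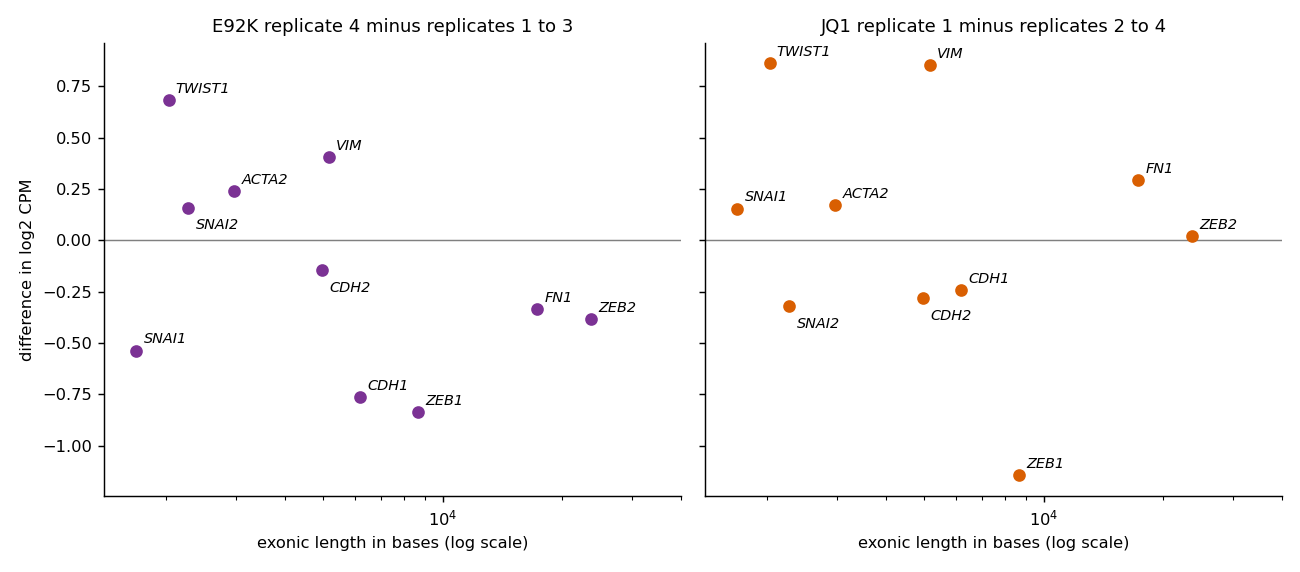
Difference in log2 CPM between a library of high mitochondrial share and the mean of the other 3 libraries of its group (vertical axis) against exonic length (log axis), for E92K replicate 4 (left) and JQ1 replicate 1 (right), 1 point per gene. TWIST1 is high in both, at 0.68 and 0.86, and ZEB1 low in both, at -0.84 and -1.15.

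Over all tested genes the deviations of E92K replicate 4 and JQ1 replicate 1 from their group means correlated at 0.71. Among the 10 genes the 2 libraries deviated with the same sign in 6. The share of all tested genes with the same sign was not computed, so the count of 6 is a description only. Relative to the other 3 libraries of its group, TWIST1 was higher by 0.68 in E92K replicate 4 and by 0.86 in JQ1 replicate 1 on the log2 CPM scale, and VIM by 0.40 and 0.85. ZEB1 deviated by -0.84 and -1.15 and CDH1 by -0.76 and -0.24. CDH2 deviated by -0.15 and -0.28 and ACTA2 by 0.24 and 0.17. SNAI2, FN1, ZEB2 and SNAI1 deviated with opposite signs in the 2 libraries. Over all tested genes of 8000 or more exonic bases the median deviation was -0.11 in E92K replicate 4 and -0.18 in JQ1 replicate 1, and the part of gene length or RNA quality in the members' values was not tested.

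The conditions were also set against each other. These contrasts compare the means of 2 groups without that of H2A DMSO, while the filter, the scaling and the spread came from all 16 libraries. Doses and times differ between the compounds, so these are tests between groups and not between matched treatments. E92K against JQ1 called 4 of 10 genes, beside 22.9% of all tested genes: SNAI2 at -1.12 ± 0.10 and ACTA2 at -0.76 ± 0.13 were lower in E92K, and ZEB2 at 1.47 ± 0.14 and TWIST1 at 0.63 ± 0.20 higher. TWIST1 had an adjusted p of 0.0279, and 0.0976 without E92K replicate 4, 0.0811 without JQ1 replicate 2, 0.104 without JQ1 replicate 3 and 0.0889 without JQ1 replicate 4. Without JQ1 replicate 1 its log2 fold change was 0.90 (adjusted p = 0.000177) and without both libraries 0.71 (adjusted p = 0.000112), while in the 8 libraries of the comparison alone the call was lost (adjusted p = 0.123). JQ1 against pinometostat called 5 of 10, beside 34.2% of all tested genes. SNAI2 (1.25 ± 0.10), ACTA2 (0.87 ± 0.13), VIM (0.66 ± 0.17) and FN1 (0.38 ± 0.14) were higher with JQ1 and ZEB2 (-1.16 ± 0.15) was lower. VIM was at 0.42 without JQ1 replicate 1 and still passed (adjusted p = 0.00549). FN1 had an adjusted p of 0.0394, and 0.0534 without JQ1 replicate 1, 0.0726 without JQ1 replicate 2, 0.0610 without pinometostat replicate 2 and 0.137 without pinometostat replicate 4. In all, the FN1 call was lost in 10 of 21 alternatives. Among them were limma on TPM (adjusted p = 0.459), and edgeR by library size alone (0.232) and in the 8 libraries of the comparison alone (0.0640). Without both libraries 8 of 10 genes were called, beside 45.0% of all tested genes. The 5 genes called with all 16 libraries, SNAI2, ACTA2, VIM, FN1 and ZEB2, had groups that did not overlap between JQ1 and pinometostat. This was 5 of 10, beside 33.2% of all tested genes. For FN1 the groups barely parted, at 104.608 CPM in the lowest JQ1 library and 104.588 CPM in the highest pinometostat library. On TPM they overlapped, at 13.8 to 21.5 TPM with JQ1 and 12.7 to 18.5 TPM with pinometostat. ACTA2 was at 9.52 to 11 CPM with JQ1 and 4.88 to 5.85 CPM with pinometostat.

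E92K against pinometostat called none of the 10 by edgeR, beside 0.352% of all tested genes, with 4 of 10 at an unadjusted p below 0.05, as held for 17.4% of all tested genes. Without both libraries it called 4, CDH1, TWIST1, VIM and ZEB2, beside 8.98% of all tested genes. TWIST1 had 27.1 to 44.4 CPM in E92K and 18.1 to 24.1 CPM in pinometostat libraries, and VIM 319 to 484 CPM in E92K and 256 to 297 CPM in pinometostat libraries, and neither overlapped, as held for 14.5% of all tested genes. The log2 fold changes were 0.58 ± 0.20 and 0.51 ± 0.17.

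Genes with the most similar pattern over the 16 libraries were found for each gene called against H2A DMSO, by the root mean square difference of log2 CPM after the H2A DMSO mean was subtracted, among 11489 genes. Nearest to SNAI2 were ID2, an inhibitor of helix-loop-helix factors, at 0.201, ING1 at 0.218 and ZSWIM6 at 0.226, where the median gene was at 0.694. Among the 3 nearest to ZEB2 were ITPKB at 0.144 and TRAF3IP2 at 0.183, with a median of 0.806 over all genes. CXCL16 (0.195), NCSTN (0.197) and LRRC41 (0.200) were nearest to CDH1, and SHKBP1 (0.181), PRKCSH (0.185) and RAB40C (0.186) to ACTA2, with medians of 0.484 and 0.491. These distances are a description over libraries that share their groups.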

How the data were processed

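Libraries were assigned to groups from the sample titles. Where a title names DMSO the treatment field lists none. Pinometostat is in millimolar in the treatment protocol and in micromolar in the sample field, and the sample field (2.5 µM) was used. No source used here names the aligner, the counter, its strand setting or the genome build.

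Counts per gene, as deposited by the authors, are whole numbers, and the library files and the series table hold equal values in 920000 of 920000 cells. The TPM values deposited by the authors are the counts over exonic length, scaled to a fixed sum. Each value column matched a sample.

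After filterByExpr (minimum count 10, minimum total 15) and TMM scaling (factors 0.777 to 1.09), group means of the 16 libraries were fitted with glmQLFit of edgeR 4.0.16 (R 4.3.3), with 12 residual degrees of freedom. Tests were two-sided, adjusted by Benjamini-Hochberg over 17306 genes, with a threshold of 0.05, and the SE is the absolute log2 fold change over the root of F. CPM are TMM-scaled. The script was tested on simulated data. Replicates differed by more than sampling noise (chi-square per degree of freedom at least 3.54).

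Alternatives were DESeq2 1.42.0, limma 3.58.1 with voom or on log2(TPM + 1), other scalings and filters, fits of single comparisons, a replicate block and left-out libraries. Leaving out both libraries of high mitochondrial share, and library quality weights, were added after seeing the data. The 10 genes and the lists were chosen with earlier results of these data known. Named were all 10 genes, up to 3 called genes per list and comparison by adjusted p, those that spell out counts of 5 or fewer, and the 3 nearest patterns; called genes beyond these were named after their values were seen. Results for 2 further genes under this rule are not reported here.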

Additional observations from a re-analysis of the deposited data

Results flagged for a closer look

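In groups of 4 libraries, a library was singled out when its gap to the nearest other library, as a share of the group's range, passed Dixon's 95% critical value, which chance gives in about 1 in 20 groups. Of 40 groups examined, 10 genes in 4 groups each, 4 had such a library, and all 4 were in a library of high mitochondrial share. TWIST1 had 44.4 CPM in E92K replicate 4, against 27.1 to 27.9 CPM in the other E92K libraries. TWIST1 also had 31.1 CPM in JQ1 replicate 1, against 15.9 to 18 CPM in the other JQ1 libraries. ZEB1 had 17.4 CPM in E92K replicate 4, against 30.2 to 32.5 CPM in the other E92K libraries. VIM had 663 CPM in JQ1 replicate 1, against 361 to 373 CPM in the other JQ1 libraries. The part of RNA quality in these values was not tested.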

How the results depend on the processing

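Of 816 values of single genes under alternatives, 741 kept their direction and their side of the threshold, 32 lost the call, 17 gained it and 26 changed sign; SNAI2 and ZEB2 with JQ1 kept both in all 21 alternatives each. With E92K 1 gene (ACTA2) was called with library quality weights, beside 6.34% of all tested genes, and 0 under every other alternative. With pinometostat 0 were called at a threshold of 0.01, 1 with library size alone, with upper-quartile scaling and with the replicate block, 5 with the 8 libraries of the comparison alone (27.6% of all genes) and without both libraries of high mitochondrial share (27.4%), and 6 with quality weights (32.1%), and on TPM 2, ACTA2 and VIM in place of CDH1; leaving out 1 library gave 0 to 1. E92K against pinometostat gave 1 with no filter and 4 without both libraries (8.98% of all genes) or with quality weights (18.3%), and JQ1 against pinometostat 8 without both (45.0%) and 9 with quality weights (53.0%). The cause was not tested. No paired design is stated, and same-numbered libraries did not deviate together in every pair (correlations from -0.56 to 0.24), so the replicate block, which took the call from CDH1 with pinometostat (adjusted p = 0.0927) and from TWIST1 in E92K against JQ1 (adjusted p = 0.0562), is given only here; all genes called fell to 534 with it, against 1419.

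Sign changes were small on the log2 scale. In E92K, ZEB1 was 0.0618 without both libraries, 0.050 with quality weights and -0.197 to 0.0361 with 1 library left out. ZEB2 in E92K was -0.0215 by library size, -0.00265 with no filter, -0.000425 with a 50-count filter, -0.0677 on TPM and -0.112 to 0.0766 with 1 library left out, and CDH2 was 0.0416 with quality weights. With JQ1, ZEB1 was 0.0840 without both, 0.0908 with quality weights and -0.209 to 0.0745 with 1 library left out, and CDH2 0.0189, 0.0886 and -0.0719 to 0.0403. VIM with JQ1 was -0.0373 on TPM, and FN1 -0.0417 by library size and -0.128 on TPM. With pinometostat, ZEB1 was -0.0181 by library size, -0.101 on TPM and -0.00143 to 0.0519 with 1 library left out, and SNAI2 -0.0883 on TPM.

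Over all genes, JQ1 had a median log2 fold change of 0.04, against -0.14 by library size and -0.21 on TPM, and 40.7% of its 3044 calls were higher, against 14.3%, 8.77%, 27.4% with upper-quartile scaling, 27.0% in 8 libraries and 50.7% with quality weights. With pinometostat 44.1% of 1419 calls were higher, against 57.2% with upper-quartile scaling, 32.6% by library size and 15.1% on TPM. JQ1 called 1872 genes in 8 libraries and 5762 with quality weights, and pinometostat 4610 in 8 libraries, 4782 without both, 5548 with quality weights, 2348 by DESeq2 and 457 on TPM. At a threshold of 0.01 JQ1 called 1560 and pinometostat 182. SNAI1, at 16 to 41 counts, is limited by depth and had no value under the 50-count filter.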
